A study of Mus musculus with 10 samples.

Results

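The genes described here are 10 genes of the circadian clock, the cell's own daily oscillator, measured by RNA sequencing in the lungs of 10 mice. They are Arntl (Bmal1), Clock and Npas2, whose proteins switch clock genes on, Per1, Per2, Per3 and Ciart, whose proteins switch the activators off, Nr1d1 and Nr1d2, which encode the nuclear receptors REV-ERBα and REV-ERBβ, and Dbp, an output factor. Members were taken by symbol through the Ensembl gene identifiers of the count table in GENCODE release M21, and all 10 of 10 were found among the 47333 genes of the table. The group was put forward for a covariation in opposite phases among these mice, so the correlations between its members are given as a description, without tests.

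RNA came from the right middle lobe of the lung of untreated C57BL/6J mice aged 12 weeks, 1 library per mouse. Of these, 5 mice were knockouts (KO) for Bpifb1, the gene of a secreted protein of the airway surface, and 5 were wild type (WT). The KO group held 1 male (replicate 1) and 4 females, and the WT group 2 males (replicates 2 and 3) and 3 females. Cages held both genotypes, replicate numbers only follow the order of the samples, and the labels describe the KO allele no further. The time of day at which the lungs were taken is not given in the sources used here.

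In most mammalian cells the ARNTL protein pairs with CLOCK or NPAS2, binds the E-box sequence CACGTG and raises the transcription of Per, Nr1d, Ciart and Dbp genes. PER proteins and CIART then inhibit the pair, and the REV-ERB receptors repress Arntl, Npas2 and Clock through sites built on the letters AGGTCA, so that the activator genes peak in opposite phase to their targets. DBP, with its relatives TEF and HLF, activates genes through the D-box, and NFIL3 represses them there. The lung keeps such a clock in the airway epithelium, fibroblasts and resident immune cells.

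Libraries held 21357424 to 28321294 counts, and 3 counts, the smallest signal read as detected, were worth 0.106 to 0.14 CPM (the counts that a gene would have in a library of 1000000), a limit that covers counting error only. The targeted gene followed the labels, with Bpifb1 at 0.217 to 1.26 CPM in KO and 28.1 to 79.6 CPM in WT lungs. The 4 Y-linked genes tested held 2470 to 3441 counts in each male and at most 4 in each female. KO replicate 5, labelled female, had 0 Y-linked counts and 1.78 CPM of Xist, the RNA that silences an X chromosome, against 274 to 407 CPM in the other 6 females. The alveolar type 2 markers, which define the distal lung, summed to 23227 to 26396 CPM in KO and 24101 to 28630 CPM in WT libraries, and none of the 15 lists of cell markers held a gene at 0. In bulk tissue, fewer cells of a type and less RNA per cell cannot be told apart. WT replicate 5, the deepest library, was the lowest mouse in Per1, Per2 and Ciart, though none of these values met the outlier limit used at the end. Results that rest on this mouse are given with and without it.

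Promoter letters show which members carry the sequences named above close to their start. The RefSeq table (GRCm38.p6) holds windows of 300 bases, from 250 before to 50 after a transcript's start, for 9 of the 10 genes (13 windows). Each motif was searched on both strands in these and in all 32851 windows of the table. The stretches below are the ones with a repeated or defining motif, printed 5′ to 3′ along the gene's strand, with the motif in capitals. The motifs do not overlap one another.
Ciart, E-boxes, chr3:95882229-95882378, minus strand: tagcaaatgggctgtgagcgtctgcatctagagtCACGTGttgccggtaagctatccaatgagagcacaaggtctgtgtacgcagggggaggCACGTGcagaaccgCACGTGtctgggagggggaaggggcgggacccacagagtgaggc
Per1, E-box, chr11:69098749-69098898, plus strand: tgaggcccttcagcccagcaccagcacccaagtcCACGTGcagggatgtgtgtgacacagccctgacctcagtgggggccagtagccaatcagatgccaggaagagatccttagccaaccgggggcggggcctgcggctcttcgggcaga
Per3, D-boxes, chr4:151044746-151044895, minus strand: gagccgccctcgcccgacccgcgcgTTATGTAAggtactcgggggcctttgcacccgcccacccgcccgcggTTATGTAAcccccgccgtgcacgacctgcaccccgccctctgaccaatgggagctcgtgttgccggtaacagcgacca
Arntl, AGGTCA after the start, chr7:113207531-113207560, plus strand: aggcagaaagtAGGTCAgggacggaggtgc

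The Ciart window held 3 E-boxes, beginning 116, 58 and 44 bases before the start. Of all windows, 7.15% held at least 1 E-box and 0.0883% held 3 or more. Per1 held 1 E-box, 166 bases before its start. Per3 held 2 copies of the D-box TTATGTAA, 205 and 158 bases before its start, a motif present in 0.938% of all windows and present at least 2 times in 0.021%. The letters AGGTCA, present in 16.3% of windows, stood 31 bases after the start of an Arntl transcript, 119 bases before that of Clock, 137 bases before that of Per1 and 77 bases before that of Nr1d2. The E-box variant CACGTT (4.68% of windows) stood 28 bases before the start of Nr1d1, and none of these motifs was found in the windows of Npas2 and Dbp. A match describes letters only, and says nothing on binding in these lungs.

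Levels per length placed the REV-ERB and output genes above the activators. Over the 10 mice, mean CPM per kilobase of exon was 122 for Nr1d1, 39.3 for Dbp, 25.9 for Per1 and 23.2 for Nr1d2. Per2 (9.77), Per3 (6.69), Ciart (5.29) and Clock (4.79) lay between these and the lowest members, Arntl (1.57) and Npas2 (0.669), in the same unit. Npas2 had 49 to 109 counts per library, so that it carried the largest counting error in the group.

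How far a gene moved between mice differed widely within the group. After removal of the genotype and sex means, the SD of log2 CPM was 0.58 for Per1, wider than 98.4% of the 16281 genes with a mean of at least 1 CPM, whose median SD was 0.12. Arntl (0.39, wider than 95.2%), Per2 (0.37, 94.6%), Ciart (0.37, 94.4%) and Dbp (0.30, 90.8%) followed on the same scale. Npas2 had 0.25, Per3 0.23 and Clock 0.19. Nr1d1 (0.10, wider than 32.9%) and Nr1d2 (0.09, wider than 28.3%), the receptor genes of the second loop, varied less than the median gene. The highest mouse exceeded the lowest 4.08 times in Per1, 3.11 times in Dbp, and 1.22 and 1.19 times in Nr1d1 and Nr1d2.

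**Figure D1:**
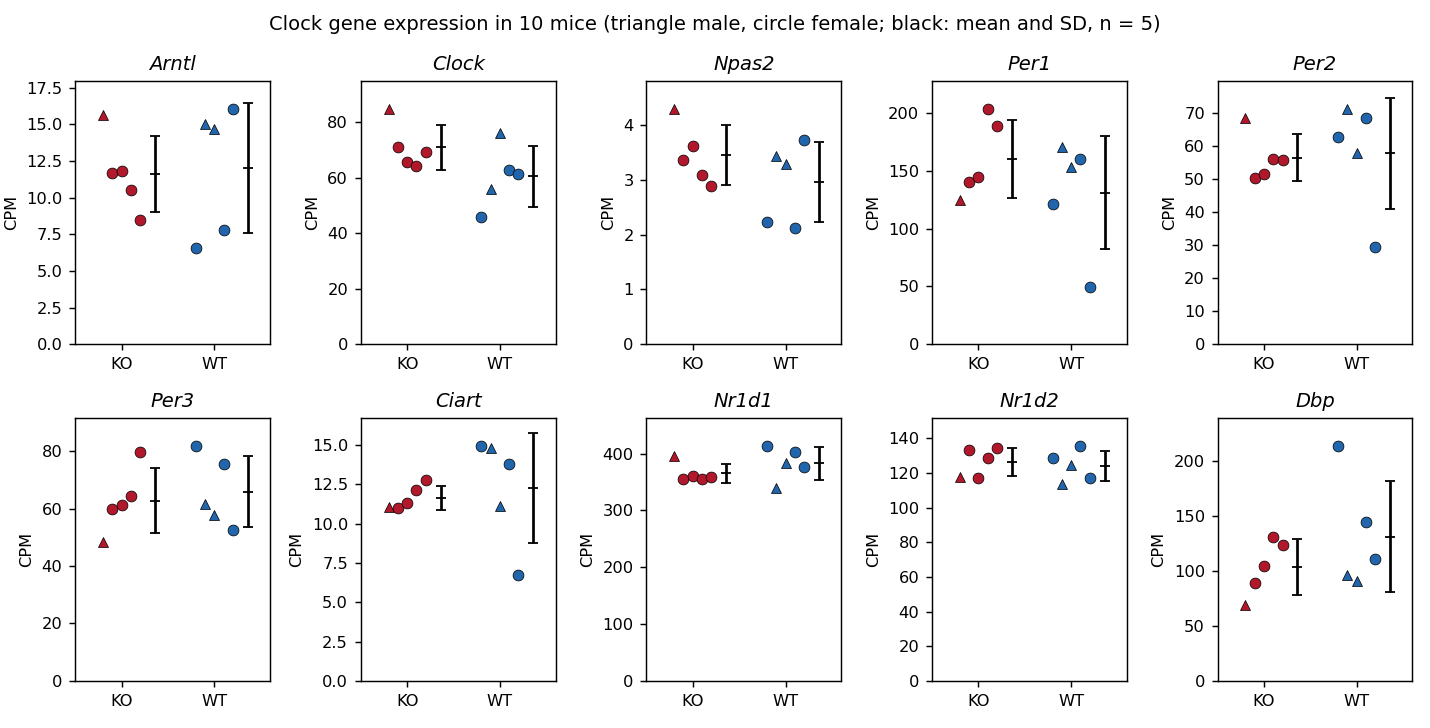
Normalised expression (CPM, linear axes starting at 0) of each of the 10 clock genes in 5 KO (red) and 5 WT (blue) lungs; triangles are males, circles females, and black bars the mean and SD over 5 mice. The groups overlap in every panel, and WT replicate 5 is the lowest circle for Per1, Per2 and Ciart.

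The activator genes were compared first. Arntl, which encodes the shared partner of CLOCK and NPAS2 (ENSMUSG00000055116; chromosome 7, 113207465 to 113314126, plus strand, GRCm38), measured 15.6, 11.6, 11.8, 10.5 and 8.49 CPM in KO replicates 1 to 5. The WT lungs measured 6.58, 15.01, 14.7, 7.82 and 16.02 CPM. High and low mice occurred in both genotypes, with the lowest and the highest both in WT, and the means were 11.6 ± 2.605 in KO and 12.02 ± 4.45 in WT (SD, n = 5 each). The log2 fold change was 0.05 (SE 0.23, edgeR adjusted p 0.93), adjusted by Benjamini-Hochberg over the 18024 genes tested. Without WT replicate 5, the highest mouse, it was 0.38 (SE 0.13, edgeR adjusted p 0.21), without WT replicate 1 it was -0.09 and without WT replicate 4 -0.05.

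Npas2, which can stand in for Clock in the activator pair (chromosome 1, 39193731 to 39363236, plus strand), was present at 4.29, 3.36, 3.63, 3.08 and 2.88 CPM in KO replicates 1 to 5. The WT lungs had 2.22, 3.43, 3.29, 2.13 and 3.73 CPM. The same WT mice, 1 and 4, were low in Npas2 and Arntl, and KO replicate 1 was high in both. Its log2 fold change was 0.28 (SE 0.16, edgeR adjusted p 0.39), and 0.49 (SE 0.14, edgeR adjusted p 0.18) without WT replicate 5. Clock (chromosome 5, 76209868 to 76304792, minus strand) was present at 84.7, 71.1, 65.7, 64.1 and 69.2 CPM in KO and at 45.8, 56.1, 76.2, 62.8 and 61.5 CPM in WT lungs. All 5 KO lungs lay above 4 of the 5 WT lungs, while WT replicate 3 exceeded 4 of the 5 KO lungs, and the means were 70.96 ± 8.18 and 60.5 ± 11.1 CPM (SD, n = 5 each). Clock's log2 fold change of 0.28 (SE 0.10, 95% interval 0.07 to 0.50) had an unadjusted p of 0.0151 and an edgeR adjusted p of 0.21.

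The repressor genes had 1 mouse in common at the bottom of their range. Per1, a PER gene that also answers quickly to glucocorticoids and other signals (chromosome 11, 69095217 to 69109960, plus strand), was present at 124, 140, 145, 203 and 189 CPM in KO and at 121, 171, 154, 160 and 49.9 CPM in WT lungs. Per2, its close relative (chromosome 1, 91415982 to 91459324, minus strand), had 68.5, 50.4, 51.7, 56.1 and 55.7 CPM in KO mice against 62.6, 71.2, 57.9, 68.5 and 29.3 CPM in WT lungs. Ciart, the gene of a repressor of the activator pair (chromosome 3, 95878503 to 95882251, minus strand), had 11.1, 11.01, 11.3, 12.1 and 12.8 CPM in the KO mice against 14.9, 14.8, 11.1, 13.8 and 6.70 CPM in WT lungs.

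WT replicate 5 was the lowest of the 10 mice in all 3 of these genes. Without this mouse the KO against WT log2 fold change of Per1 went from 0.35 (SE 0.36) to 0.06 (SE 0.19), that of Per2 from 0.03 (SE 0.22) to -0.17 (SE 0.09) and that of Ciart from -0.05 (SE 0.20) to -0.26 (SE 0.10). None passed in either case, with edgeR adjusted p from 0.66 to 0.97 over all mice and from 0.23 to 0.92 without this one. The same mouse also had the lowest level of Tsc22d3, a gene induced by glucocorticoids, at 102 CPM against 279 to 416 CPM in the other 9, and of Wee1, a cell cycle kinase gene, at 7.84 CPM. Its immediate early genes summed to 876.5 CPM, the lowest sum of the 10 mice. The other WT lungs reached at most 1269 CPM, and all 5 KO lungs lay above that, at 1300 to 1515 CPM. Their part in its Per1, Per2 and Ciart levels was not tested.

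Per3, the third PER gene (chromosome 4, 151003652 to 151044665, minus strand), had WT replicate 5 as its lowest WT lung, with KO replicate 1 lower still. It stood at 48.4, 59.98, 61.3, 64.2 and 79.8 CPM in KO lungs and at 81.8, 61.5, 57.8, 75.7 and 52.5 CPM in WT lungs. Its high mice were WT replicates 1 and 4 and KO replicate 5, which were the lowest mice in Arntl. The log2 fold change was -0.14 (SE 0.13, edgeR adjusted p 0.62), and -0.26 (SE 0.08, edgeR adjusted p 0.20) without WT replicate 5.

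The REV-ERB genes were nearly level across mice. Nr1d1 (chromosome 11, 98767932 to 98775333, minus strand) ran from 355 to 396 CPM in KO and from 339 to 413 CPM in WT lungs, with means of 365 ± 17.4 and 383 ± 28.6 CPM. Nr1d2 (chromosome 14, 18204054 to 18239127, minus strand) ran from 117 to 135 CPM in KO and from 114 to 136 CPM in WT lungs, with means of 126 ± 8.35 and 124 ± 8.81 CPM (SD, n = 5 each). The KO against WT log2 fold change of Nr1d1 was -0.07 (SE 0.06, 95% interval -0.20 to 0.06), and -0.15 (SE 0.06) both without KO replicate 1 and in females alone, with edgeR adjusted p of 0.35 and 0.29. That of Nr1d2 was 0.01 (SE 0.06, 95% interval -0.12 to 0.13), the narrowest intervals in the group. A stretch of 263 exon bases of Nr1d1 lies opposite Thra, the thyroid hormone receptor gene on the other strand. The libraries were stranded, per the labels' protocols, but the strand setting of the counting is not given in the sources used here, so reads from that stretch may not be separable.

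Dbp, a D-box factor gene driven directly by the activator pair (chromosome 7, 45705088 to 45710203, plus strand), had 68.9, 89.2, 105, 131 and 124 CPM in KO replicates 1 to 5 against 214, 96.5, 91.2, 145 and 111 CPM in WT lungs. WT replicate 1 was far above the rest, and KO replicate 1 was lowest. The means were 104 ± 25.4 CPM in KO and 132 ± 50.7 CPM in WT lungs (SD, n = 5 each). The log2 fold change was -0.47 (SE 0.18, 95% interval -0.88 to -0.06), with an unadjusted p of 0.0299 and an edgeR adjusted p of 0.25. Without WT replicate 1 it was -0.27 (edgeR adjusted p 0.51).

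Across the group, 0 of 10 clock genes passed at an adjusted p under 0.05 between KO and WT, where edgeR called 4 of 18024 genes (0.0222%). At an unadjusted p under 0.05 there were 2 of 10, Clock higher and Dbp lower in KO lungs, against 17% of all genes (8.92% higher and 8.04% lower). DESeq2 called 0 of 10, where it called 1.92% of all genes, and limma-voom called 0 of 10, where it called 0.0111% of all genes. The KO and WT ranges overlapped in all 10 genes, and did not overlap in 1.88% of all genes. The median log2 fold change of the 10 genes was 0.02 and their median absolute value 0.10, beside -0.003 and 0.10 over all genes tested. Exact two-sided permutation tests over the 252 splits of the mice gave p from 0.135 (Clock) to 0.889 (Arntl), where the smallest possible was 0.00794.

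**Figure D2:**
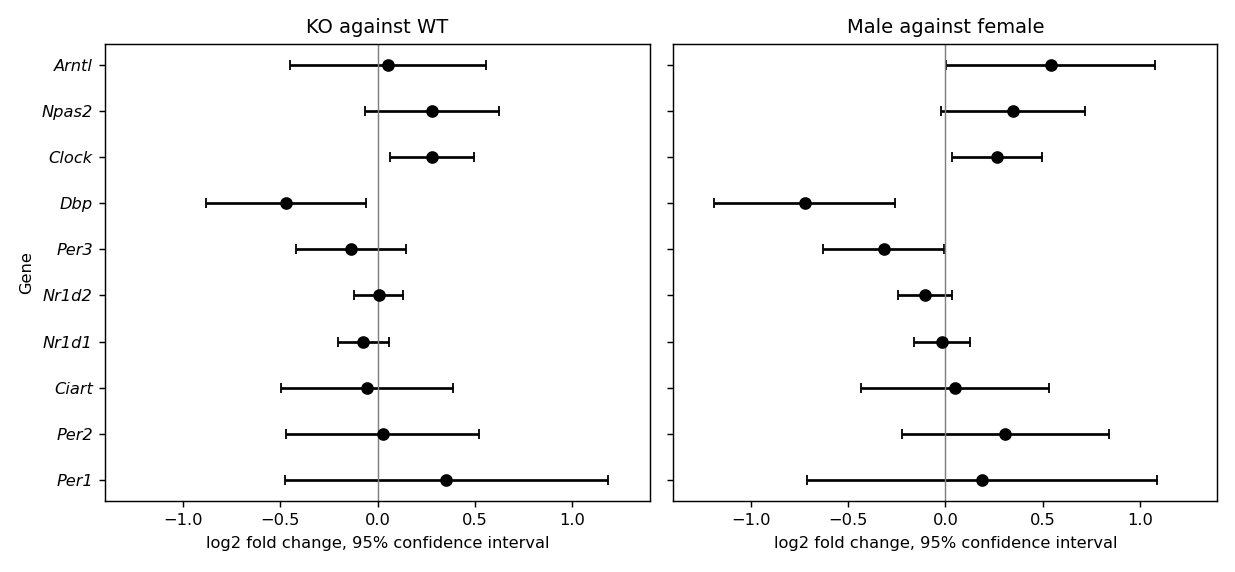
Log2 fold change (point) and 95% confidence interval (bar) of each clock gene from edgeR, KO against WT on the left and male against female on the right. Intervals for Per1 are the widest and those of Nr1d1 and Nr1d2 the narrowest, and the Dbp interval lies below 0 in both panels.

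Sex was the other label that varied. Dbp measured 68.9, 96.5 and 91.2 CPM in the 3 males and 89.2 to 214 CPM (median 124) in the 7 females. The 3 males were among the 4 lowest mice, and the ranges overlapped only through KO replicate 2. The male against female log2 fold change was -0.72 (SE 0.20, unadjusted p 0.00679, edgeR adjusted p 0.16). The exact two-sided permutation p over 120 splits, the smaller tail doubled, was 0.05.

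Arntl measured 15.6, 15.01 and 14.7 CPM in the males and 6.58 to 16.02 CPM (median 10.5) in the females, among which WT replicate 5 alone exceeded the males. Its log2 fold change was 0.54 (SE 0.24, unadjusted p 0.0487, edgeR adjusted p 0.33). Without WT replicate 5, the only female above the males, it was 0.82 (SE 0.13) and passed (edgeR adjusted p 0.0222), where 72 of 18125 genes passed. Without KO replicate 1 it was 0.53 (SE 0.34, edgeR adjusted p 0.66), and that of Dbp was -0.74 (SE 0.28, edgeR adjusted p 0.42), where 0 of 18132 genes passed. Over all mice, Clock (0.27, unadjusted p 0.0287) was higher and Per3 (-0.32, unadjusted p 0.0467) lower in males on the log2 scale.

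In total 0 of 10 clock genes passed between the sexes, where edgeR called 0.583% of all genes. The count at an unadjusted p under 0.05 was 4 of 10, against 15.1% of all genes. DESeq2 called 0 of 10 (2.42% of all genes), with an adjusted p of 0.0590 for Dbp, and limma-voom 0 of 10 (0.516%). No clock gene had ranges that differed fully between the sexes, as 4.81% of all genes did. Leaving out KO replicate 5, the female-labelled mouse without Xist, left Dbp at -0.71 (edgeR adjusted p 0.22) and Arntl at 0.50 (adjusted p 0.39).

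Heat shock genes differed between the sexes. In the list of 12 temperature response genes, 9 were higher in males at an edgeR adjusted p under 0.05, where 0.583% of all genes passed in either direction. Among the 9 were Dnaja1, a HSP40 co-chaperone gene (log2 fold change 1.04, edgeR adjusted p 0.00222), and Hspa4l, of the HSP110 family (0.79, edgeR adjusted p 0.00157). The list summed to 2080 to 4682 CPM in KO and 1836 to 4510 CPM in WT lungs. Without KO replicate 1, a male, 0 genes of the whole table passed between the sexes, 1919 having an unadjusted p under 0.05. Over the 10 mice the list's mean log2 CPM had r = -0.66 with Dbp (permutation p 0.0411; rho -0.66, permutation p 0.0445; adjusted p 0.62 and 0.86 over 54 such relations) and r = 0.53 with Arntl (permutation p 0.112). Without the 2 mice farthest from the median of Dbp, r with Dbp was -0.51. With Arntl, rho was 0.41 (permutation p 0.25). Leaving out WT replicate 5, r with Arntl was 0.83 (exact permutation p 0.00439, not adjusted), while without the 2 mice farthest from the median of Arntl it was 0.43. The list's part in the sex difference of Dbp was not tested.

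How the clock genes moved together is the pattern for which they were chosen. Pearson's r and Spearman's rho of log2 CPM over the 10 mice are given without p, and the points share library totals and scaling factors. Arntl and Npas2 varied together (r = 0.90, rho = 0.92), and both ran against Dbp (r = -0.85 for Arntl and -0.86 for Npas2) and Per3 (r = -0.93 for Arntl and -0.89 for Npas2). Per3 and Dbp ran together (r = 0.83, rho = 0.82). With genotype and sex means removed, r was 0.95 for Arntl with Npas2, -0.91 for Arntl with Per3 and -0.83 for Arntl with Dbp.

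These relations were also read without the 2 mice farthest from the median of Arntl, both at its low end. KO replicate 1, the lowest mouse in Dbp and Per3, stayed in. Without those 2 mice, WT replicates 1 and 4, r was 0.77 with Npas2, -0.88 with Per3 and -0.63 with Dbp. Nr1d2, although nearly level, also ran against Arntl (r = -0.75, and -0.78 without those mice). Clock behaved less like the other activator genes: its r with Arntl was 0.53 (rho 0.27), and 0.05 without those mice. Its r with Dbp of -0.82 became -0.29 without WT replicate 1 and KO replicate 1, so this relation rested on them.

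**Figure D3:**
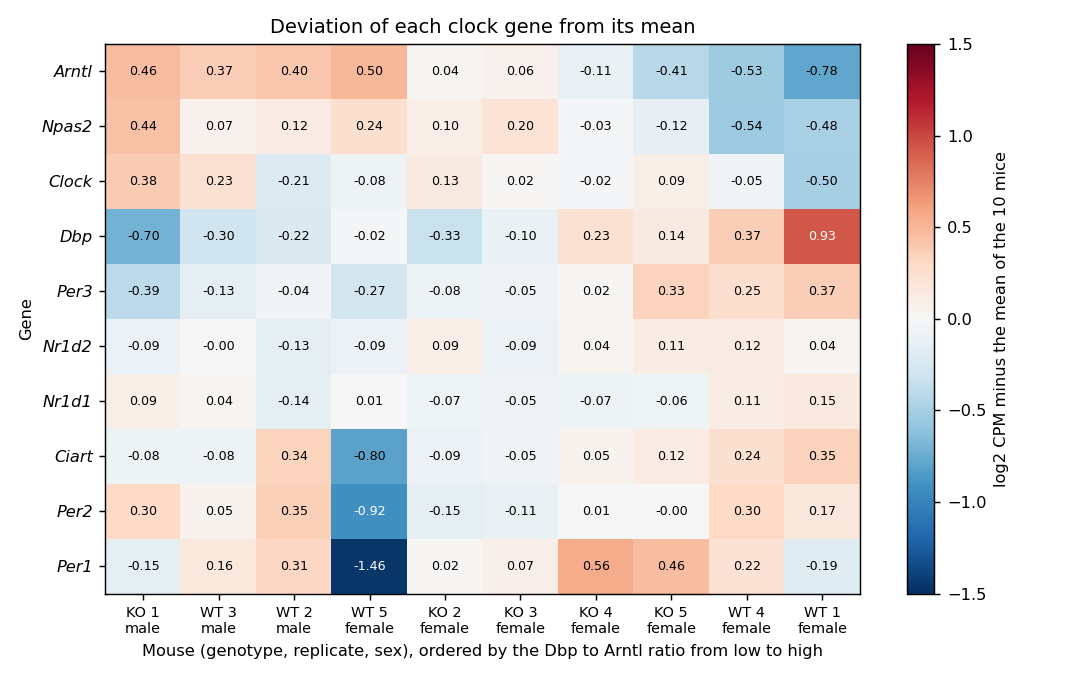
Log2 CPM of each clock gene (rows) minus its mean over the 10 mice, with mice (columns) ordered by the ratio of Dbp to Arntl. Arntl and Npas2 pass from red to blue while Dbp and Per3 pass from blue to red, and the WT 5 column holds the low values of Per1 (-1.46), Per2 (-0.92) and Ciart (-0.80).

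The ratio of Dbp to Arntl CPM puts the opposed genes on 1 scale per mouse. It was 4.41 in KO replicate 1, 6.22 in WT replicate 3 and 6.43 in WT replicate 2, the 3 males. It was 6.91 in WT replicate 5, 7.66 in KO replicate 2, 8.86 in KO replicate 3, 12.51 in KO replicate 4 and 14.6 in KO replicate 5. The highest ratios were 18.6 in WT replicate 4 and 32.5 in WT replicate 1. Both genotypes occurred at the low and the high end, and the males held the 3 lowest places.

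Per1, Per2 and Ciart formed a second set, of which Per1 and Per2 did not follow that order. Ciart followed it in part, with rho of 0.85 with Per3, 0.64 with Dbp and -0.66 with Arntl (r = 0.65, 0.37 and -0.59). Within the set, r was 0.90 for Per2 with Ciart, 0.80 for Per1 with Ciart and 0.77 for Per1 with Per2. WT replicate 5 carried most of this: without it the values were 0.59, 0.11 and -0.13. With all 10 mice, Spearman's rho, which weighs ranks, was 0.67, 0.43 and 0.30. With Arntl, Per1 had r = -0.36 and Per2 r = -0.31. With genotype and sex means removed these became -0.73 and -0.90, and Arntl with Ciart went from -0.59 to -0.89. Without WT replicate 5, and with the means kept, r with Arntl was -0.02 for Per1, 0.07 for Per2 and -0.54 for Ciart. Over all 10 mice Nr1d1 was weakly related by r to every other member, its r lying between -0.43 (Npas2) and 0.37 (Dbp). These values depended on single mice. Without KO replicate 1, r was -0.72 with Npas2 and 0.69 with Dbp, while without WT replicate 1 it was -0.19 and -0.06. With Per1, r was -0.62 without WT replicate 5, and rho over all mice was -0.56. With Per2, r was 0.85 without WT replicates 5 and 2.

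**Figure D4:**
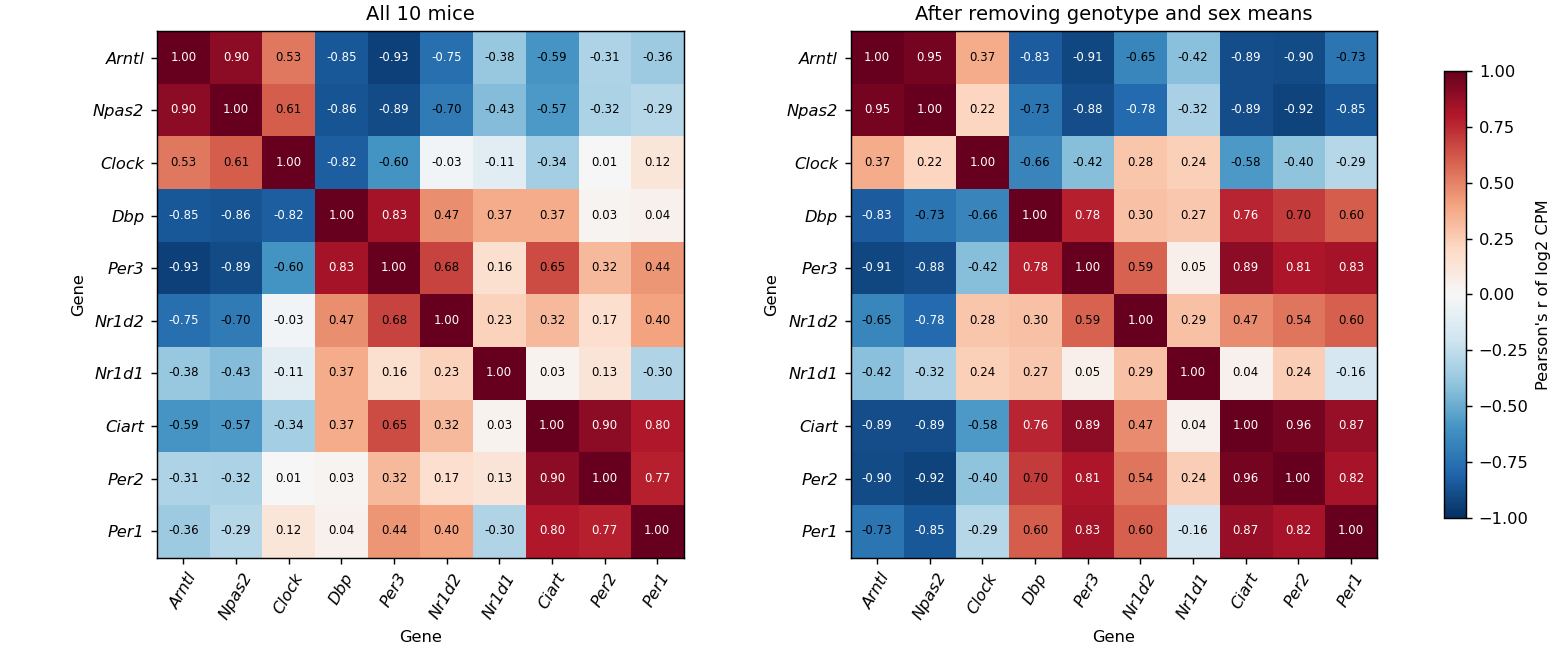
Pearson's r of log2 CPM between each pair of clock genes, over all 10 mice (left) and after removal of the genotype and sex means (right); red is positive and blue negative. Arntl and Npas2 form a block opposed to Dbp and Per3 in both panels, and Ciart, Per2 and Per1 oppose Arntl and Npas2 more strongly in the right panel (-0.89, -0.90 and -0.73 with Arntl).

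Genes outside the group were tested against Arntl and Dbp by permutation, adjusted over 18014 genes. None of them passed with Arntl (0%; 927 genes, 5.15%, at an unadjusted p under 0.05) or with Dbp (0%; 2702 genes, 15%). Spearman's rho gave 0 for both. The number of resamples limited these tests. Over 10 mice the smallest permutation p reached was 1e-05, which gave an adjusted p of 0.18 for rho with Dbp. A lone gene could not pass in this way, so 0 calls do not show that no gene followed. The same limit holds for the other adjusted permutation p over these 18014 genes from 10 mice. The genes most like Arntl were Rptn (r = 0.95), Ifi208 (0.95), Pex13 (0.94), Mgat3 (0.91) and Gm12184 (0.91), with adjusted permutation p from 0.18 to 0.70. Rptn encodes a protein of keratinised epithelium and Pex13 a peroxisome import factor. Those most opposed to Arntl were Gsap (-0.89), Hlf (-0.88), Ube2t (-0.87), Nmb (-0.87) and Nol6 (-0.87), each with an adjusted permutation p of 0.91. Both lists of 5 were taken from the 16271 genes outside the group with a mean of at least 1 CPM, and Hlf encodes a relative of DBP.

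Dbp was followed most closely by its neighbour. Sphk2, a sphingosine kinase gene on the opposite strand, had r = 0.97 with Dbp (permutation p 3e-05; rho 0.95, permutation p 9e-05; adjusted p 0.225 and 0.232) and shares 539 exon bases with it. It was lowest in KO replicate 1 and highest in WT replicate 1, the same mice as for Dbp. As the counting's strand setting is not given in the sources used here, reads of the shared stretch may count for either gene, and their part in this r was not tested. Thra, opposite Nr1d1, had r = -0.24 with it (permutation p 0.499; rho -0.19, permutation p 0.607).

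The next genes along with Dbp were Haspin, a mitotic kinase gene (r = 0.96), Rnaseh2a (0.94), Bhlhe41 (0.93) and Tmem86a (0.93). Bhlhe41 encodes DEC2, an E-box repressor of the clock, and it overlaps 1280 exon bases of an unnamed transcript model on the other strand. Emsy (-0.95), Rbm6 (-0.95), Slc5a3 (-0.95), Gm26540 (-0.94) and Tbc1d12 (-0.94) ran most against Dbp. Adjusted permutation p over these 9 genes ran from 0.225 to 0.238.

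**Figure D5:**
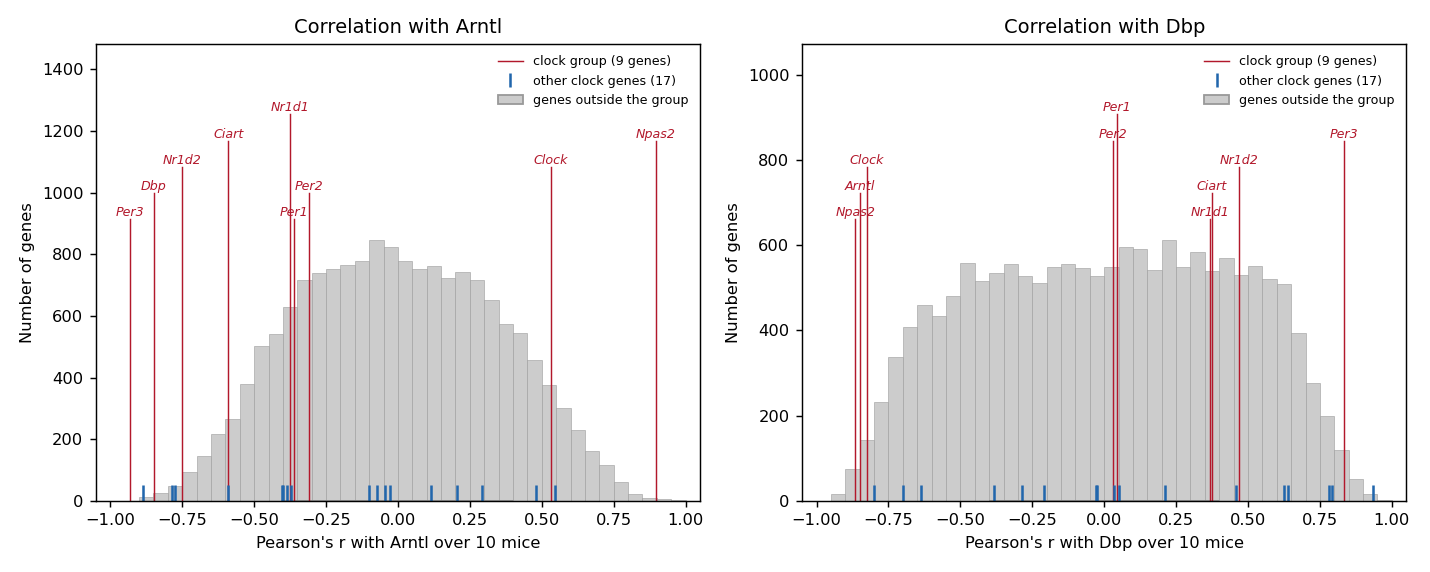
Number of genes (grey bars) by Pearson's r over 10 mice with Arntl (left) and Dbp (right), with the other 9 clock genes of the group as red lines and 17 further clock genes as blue ticks. The red lines are values for which the group was put forward; those of Per1 (0.04) and Per2 (0.03) stand near 0 in the Dbp panel.

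The rest of the clock pathway was read from a list of 18 genes, of which 17 were tested, Rorb being low at 0.0465 to 0.347 CPM. With Arntl, 3 of 17 ran opposite at an unadjusted permutation p under 0.05 and 0 ran along: Hlf (r = -0.88, rho -0.94), Bhlhe41 (-0.79, rho -0.68) and Tef (-0.78, rho -0.78). With Dbp, 5 ran along (Bhlhe41, Hlf 0.79, Tef 0.78, Bhlhe40 0.64 and Arntl2 0.63) and 3 ran opposite, among them Nfil3 (-0.70) and Rora (-0.64). Of these 11 relations 0 passed adjustment, with adjusted permutation p from 0.225 to 0.91. An unadjusted permutation p under 0.05 was reached by 5.15% of all genes outside the group with Arntl and by 15% with Dbp, in either direction. Without the 2 mice farthest from the median of Arntl, r with it was -0.71 for Hlf, -0.42 for Bhlhe41 and -0.57 for Tef. Without those farthest from the median of Dbp, r with it was 0.90 for Bhlhe41 and -0.08 for Rora. Of the cryptochrome repressor genes, Cry1 had r = -0.04 with Arntl (rho -0.14), and -0.43 with genotype and sex means removed. Cry2 had r = -0.37 (rho -0.50), and -0.70 with the means removed.

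Between genotypes 0 of the 17 passed in edgeR (0.0222% of all genes), and 4 had an unadjusted p under 0.05 (17% of all genes). Nfil3, whose protein competes with DBP at D-boxes, stood at 12.9, 8.06, 11.1, 7.77 and 8.06 CPM in KO and at 6.54, 10.5, 9.24, 6.30 and 5.66 CPM in WT lungs. The genotypes overlapped, with males high in both. Its log2 fold change of 0.47 (SE 0.11) had an edgeR adjusted p of 0.12 and a DESeq2 adjusted p of 0.0188. Nfil3 was the only gene of the 17 called by DESeq2, which called 1.92% of all genes. Rora (0.21) and Btrc (0.12) were the others higher in KO, with edgeR adjusted p of 0.28 each, and Bhlhe41 (-0.26, edgeR adjusted p 0.16) was lower. Between sexes Nfil3 passed in edgeR (log2 fold change 0.63 higher in males, SE 0.11, adjusted p 0.0240), as did 0.583% of all genes. Without KO replicate 1 its fold change was 0.68 (adjusted p 0.15), where 0 of 18132 genes passed. DESeq2, which called 2.42% of all genes between sexes, gave adjusted p of 0.000423 for Nfil3 and 0.00556 for Bhlhe41.

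Clock output genes were read from a list of 10 that oscillate in many tissues. With Arntl, Tspan4 (r = -0.77) and Usp2 (-0.71) ran opposite and Nampt (0.73) and Lonrf3 (0.61) ran along at an unadjusted permutation p under 0.05. Nampt encodes the rate-limiting enzyme of NAD salvage and Usp2 a ubiquitin protease. With Dbp, 3 of 10 ran along (Tspan4 0.84, Por 0.66 and Usp2 0.64) and 3 opposite (Nampt -0.71, Lonrf3 -0.71 and Cdkn1a -0.67), and 0 passed adjustment with either gene. Of all genes outside the group, 5.15% had an unadjusted permutation p under 0.05 with Arntl and 15% with Dbp, in either direction. Without the 2 mice farthest from the median of Dbp, the 3 opposed genes had r = -0.11 (Nampt), -0.02 (Lonrf3) and -0.20 (Cdkn1a) with it, so these relations rested on those mice, while Tspan4 had 0.50, Por 0.52 and Usp2 0.58. Without the 2 farthest from the median of Arntl, r with it was -0.45 for Tspan4, -0.49 for Usp2, 0.77 for Nampt and 0.22 for Lonrf3. Tspan4 shares 292 exon bases with Chid1 on the other strand. Between KO and WT 0 of 10 passed in edgeR, and 2 had an unadjusted p under 0.05 (17% of all genes), among them Por (log2 fold change -0.15, adjusted p 0.24), an enzyme gene of electron transfer to cytochromes P450. DESeq2 called 0.

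Per1 was followed in the same way after its values had been seen. None of the 18014 genes passed (0%; 1147 genes, 6.37%, at an unadjusted p under 0.05; rho also gave 0), under the same limit of the resamples. The closest were Mbd1 (r = 0.97), Tsc22d3 (0.96) and Cebpd (0.95), the last 2 induced by glucocorticoids. Tsc22d3 had r = 0.65 without the 2 mice farthest from the median of Per1, WT replicate 5 and KO replicate 4, and Cebpd had 0.79. The glucocorticoid response list, taken without Per1, had r = 0.70 with Per1 (permutation p 0.0180; rho 0.49, permutation p 0.153; adjusted p 0.61 over 54 relations) and r = 0.40 without WT replicate 5. The list summed to 1166 to 1345 CPM in KO and 714 to 1356 CPM in WT lungs, and its part in the Per1 values was not tested.

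Of the 54 relations of the response and marker lists with Arntl, Dbp and Per1, 0 passed adjustment, the smallest adjusted p being 0.61. The red cell list, a measure of blood in the lobe, had r = 0.70 with Arntl (permutation p 0.0226; rho 0.53, permutation p 0.124), and 0.40 without WT replicates 1 and 4, and summed to 12731 to 14072 CPM in KO and 11532 to 19506 CPM in WT lungs. The smooth muscle list had r = -0.63 with Per1 (permutation p 0.0693; rho -0.21, permutation p 0.561) and 0.15 without WT replicate 5. Immediate early genes, whose level follows recent stimulation of cells, had 0 of 14 passing between KO and WT, and 7 higher and 1 lower in KO at an unadjusted p under 0.05 (median log2 fold change 0.35), against 8.92% and 8.04% of all genes. Their sums, 1300 to 1515 CPM in KO and 876.5 to 1269 CPM in WT lungs, did not overlap, where 1.88% of all single genes did not. Within the list, Fos, Jun, Junb and Dusp1 were among the genes that overlapped, and Fosb and Btg2 among those that did not. The list's part in the clock gene levels was not tested.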

How the data were processed

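Per the labels' protocols, stranded mRNA libraries (KAPA) were sequenced as single reads of 50 bases on an Illumina instrument. The submitters' processing notes name STAR 2.6.0, Salmon 0.9.1, FastQC and MultiQC and the builds mm10 and GRCm38, without their roles. The authors deposited 1 table of estimated counts, not normalised, with 30.1% of its values above 0 further than 0.01 from an integer, and these were rounded. GENCODE M21 gave symbols, positions and lengths of exons (52 of 47333 identifiers unmatched). The strand setting of the counting is not given in the sources used here.

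The quasi-likelihood test of edgeR 4.0.16 (R 4.3.3, robust fit, TMM scaling, filterByExpr by genotype with a minimum count of 10 and total of 15) was fitted to all 10 mice with genotype and sex, leaving 18024 genes, with Benjamini-Hochberg adjustment and 7 residual degrees of freedom. DESeq2 1.42.0 and limma 3.58.1 (voom) were alternatives. Correlations used log2 CPM (prior count 2) and two-sided permutation tests with 100000 resamples, or all orders of 9 or fewer mice. Without the 2 farthest mice means farthest from the median of the first gene named. Both procedures were tested on simulated data. The most alike pair of mice in a group differed by a chi-square of 5.92 per gene, so no library was counted as a repeat.

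Genes were named by rule: the 10 members, the lists of other clock genes and clock outputs, Bpifb1, and the 5 highest and 5 lowest by r with Arntl and with Dbp. Genes named for Per1, and single genes of the response lists, were picked with their values known. Some genes of the lists are counted but not reported by name here. The members and lists were chosen with earlier results of these data known. Alternatives were other scaling (DESeq2 size factors, no TMM), filters, covariates, prior count, tool, threshold and leaving out each mouse. Promoter letters came from RefSeq (GRCm38.p6). Each mouse gave 1 sample, and 0 columns belonged to no sample.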

Additional observations from a re-analysis of the deposited data

Results flagged for a closer look

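Nr1d1, the REV-ERBα gene, stood out in KO replicate 1, the only KO male. It measured 396.1 CPM there and 355.1 to 360.0 CPM in the other 4 KO lungs, a gap of 0.88 of the group's range where Dixon's 95% limit for 5 samples is 0.71. The WT lungs ran from 339 to 413 CPM, so this value lay inside the range of the other genotype. With 20 sets of 5 mice examined (10 genes in 2 genotypes), about 1 such gap is due by chance. It was the only value flagged, and the low values of WT replicate 5 in Per1, Per2 and Ciart stayed under the limit.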

How the results depend on the processing

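Each of the 19 alternatives to the KO against WT fit gave 0 of 10 clock genes and 0 of 10 output genes called. Between sexes the count of clock genes ranged from 0 to 1 when single mice were left out. The 1 was Arntl without WT replicate 5, the only female above the males in that gene, where 72 of 18125 genes passed. Among the other clock genes the DESeq2 Wald test called 1 (Nfil3), where it called 1.92% of all genes. Genes following Arntl ranged from 0 to 1 on leaving out single mice (Pter without WT replicate 5). Those following Per1 ranged from 0 to 1 (Apba1 without WT replicate 2, Mbd1 without KO replicate 4). These runs of 9 mice used all orders, and each call had a permutation p of 2.76e-06 (adjusted p 0.0496). Resamples of 10 mice reached no p under 1e-05, so the mouse left out and the change of test cannot be told apart. No gene followed Dbp under any of its 16 alternatives. Of 350 alternative fold changes 327 kept direction and call, 22 changed sign and 1 passed. Without the sex covariate, the log2 fold change between genotypes was -0.054 for Arntl and -0.033 for Per2. That of Ciart was 0.032 with limma-voom and 0.0099 in females alone, and that of Nr1d2 was -0.0027 without a filter. Leaving out single mice, it ranged from -0.093 to 0.38 (Arntl), -0.17 to 0.18 (Per2), -0.26 to 0.069 (Ciart) and -0.033 to 0.037 (Nr1d2). Between sexes it ranged from -0.073 to 0.56 (Per1), -0.13 to 0.15 (Ciart) and -0.14 to 0.056 (Nr1d1). Of 720 alternative correlations between clock genes 680 moved little, 37 moved further and 3 reversed. Those were Clock with Per3 (0.032) and Per1 with Per2 (-0.025) without the 2 farthest mice, and Per1 with Per2 without WT replicate 5, where r ranged from -0.13 to 0.84 over single mice left out. The cause was not tested for any of these. No paired analysis was possible because the replicate numbers come from sample order and tie no mouse to another. With 5 mice per genotype and 3 males, genotype intervals were as wide as -0.48 to 1.19 (Per1), and 49 to 109 counts per library limit Npas2.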
